A study of Mus musculus with 9 samples.

Results

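Open chromatin was examined at 8 genes that regulate the second heart field and the developing heart: Isl1, Nkx2-5, Mef2c, Hand1, Hand2, Myocd, Smarcd3 and Srf. The genes were chosen by name, and their loci were taken from the mm9 gene annotation as the gene body with 50 kb on either side. They are 8 of 22367 protein-coding genes on chromosomes 1 to 19, X and Y. Peaks were assigned to a locus by their midpoint. A promoter peak had its midpoint within 1 kb of a transcription start site (TSS), and a distal peak lay farther than that from the TSSs of all annotated genes.

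The second heart field is a population of mesodermal progenitors in the pharyngeal region that adds the outflow tract, the right ventricle and part of the atria to the early heart tube, and it shares progenitors with muscles of the head and neck. Isl1, a LIM homeodomain factor, marks these progenitors, and Tbx1, a T-box factor, is needed in the anterior ones. Nkx2-5 (NK2 homeodomain), Mef2c (MADS box), and Hand1 and Hand2 (basic helix-loop-helix) act as the cells enter the cardiac programme. Srf encodes a MADS box factor that binds CArG boxes, Myocd encodes its coactivator myocardin, and Smarcd3 encodes BAF60c, a subunit of the BAF chromatin remodelling complex. Open chromatin away from promoters often marks enhancers, and ATAC-seq records where a transposase can reach the DNA.

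The data were peak lists of 9 ATAC-seq libraries from Swiss Webster mouse embryos at E9.5, 3 per group, each from GFP-positive, DAPI-negative cells sorted from pooled embryos. Tbx1-Cre Ctrl embryos were Tbx1Cre;Rosa26-GFPflox/+, Tbx1-Cre cKO embryos were Tbx1Cre/flox;Rosa26-GFPflox/+ and Mesp1-Cre Ctrl embryos were Mesp1Cre;Rosa26-GFPflox/+. Because Cre takes the place of working Tbx1 on its own allele, the Tbx1-Cre Ctrl embryos had 1 intact Tbx1 copy, the cKO cells none and the Mesp1-Cre Ctrl embryos both. Mesp1-Cre marks the early mesoderm, whereas Tbx1-Cre marks mesoderm, endoderm and ectoderm that expressed Tbx1, so the 2 control groups differ in both lineage and Tbx1 dose. The labels name the pharyngeal apparatus and heart as the tissue, with the back for the Tbx1-Cre groups, while the methods of the study describe a dissection that left out the heart.

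The lists differed in length before any locus was considered. Tbx1-Cre Ctrl lists held 43298 to 49490 peaks, cKO lists 19772 to 29251 and Mesp1-Cre lists 25485 to 42650. Distal peaks made up 63.9 to 66.1% of the Tbx1-Cre Ctrl lists and 37.0 to 50.7% of the cKO lists. Read depth is unknown, and a peak that was not called is not a measurement of closed chromatin. Within 10 kb of Tbx1 the Tbx1-Cre Ctrl libraries had 3, 2 and 2 peaks, the Mesp1-Cre libraries 1 each and the cKO libraries 0. Promoter peaks were found at 2 to 5 of 5 pharyngeal mesoderm markers per library (4 or 5 in Tbx1-Cre Ctrl, 2 or 3 in cKO, and 5, 4 and 2 in Mesp1-Cre). Tbx1, the gene inactivated in cKO, is 1 of these 5. It had a promoter peak in all 3 Tbx1-Cre Ctrl libraries and in 0 cKO libraries. Of 5 cardiomyocyte markers, Myl7, Tnnt2, Myh6 and Nppa had no promoter peak in any library, and Actc1 had one in 3 Tbx1-Cre Ctrl and 2 cKO libraries. Promoter peaks stood at 1 or 2 of 5 endothelial and blood markers in every library, at 1 to 4 of 5 endoderm markers, at 0 to 2 of 5 ectoderm and otic markers and at 0 or 1 of 3 neural crest markers, with 0 of the ectoderm markers in all 3 cKO libraries. The part of cell composition in the results was not tested, and in sorted pools fewer cells of a type and less accessible chromatin per cell cannot be told apart.

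The sequences below show 1 distal element at each of 6 genes, to set elements that the cKO lists lacked beside elements that all lists held. For Hand2 and Myocd the element had a peak in all 3 Tbx1-Cre Ctrl libraries and in no cKO library. For Isl1, Mef2c, Smarcd3 and Srf, where no such element existed, the widest distal element with a peak in all 9 libraries is shown. Nkx2-5 and Hand1 had neither kind. Each sequence is the plus strand of mm9, 200 bp around the centre of the interval shared by the Tbx1-Cre Ctrl peaks. Capitals mark matches, on either strand, to the motif AGATAA, read by GATA factors, or to the NK2 motif AAGTG. The T-box core GGTGTGA, the LIM homeodomain motif TAATTA, the MEF2 box and the CArG box had no match in these 200 bp.
Isl1, chr13:117084151-117084350: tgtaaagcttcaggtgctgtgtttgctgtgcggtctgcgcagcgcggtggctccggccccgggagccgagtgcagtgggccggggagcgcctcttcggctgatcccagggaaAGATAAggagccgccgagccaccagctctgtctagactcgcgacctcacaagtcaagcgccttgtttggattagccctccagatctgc
Mef2c, chr13:83657334-83657533: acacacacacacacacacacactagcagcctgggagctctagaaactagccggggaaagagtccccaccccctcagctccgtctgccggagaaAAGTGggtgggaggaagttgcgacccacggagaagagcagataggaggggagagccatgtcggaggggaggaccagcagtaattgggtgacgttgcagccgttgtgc
Hand2, chr8:59819828-59820027: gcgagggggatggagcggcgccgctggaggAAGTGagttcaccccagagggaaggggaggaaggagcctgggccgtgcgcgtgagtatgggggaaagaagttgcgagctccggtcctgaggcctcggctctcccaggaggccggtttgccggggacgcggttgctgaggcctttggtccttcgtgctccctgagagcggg
Myocd, chr11:65040419-65040618: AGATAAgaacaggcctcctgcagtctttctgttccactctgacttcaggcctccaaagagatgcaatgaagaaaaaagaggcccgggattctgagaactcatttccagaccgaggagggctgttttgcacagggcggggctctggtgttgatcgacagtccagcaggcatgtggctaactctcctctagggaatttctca
Smarcd3, chr5:24110711-24110910: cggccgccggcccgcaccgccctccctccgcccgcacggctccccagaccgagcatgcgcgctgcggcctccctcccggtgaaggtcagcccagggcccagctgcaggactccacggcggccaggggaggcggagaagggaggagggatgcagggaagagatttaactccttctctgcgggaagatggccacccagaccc
Srf, chr17:46689967-46690166: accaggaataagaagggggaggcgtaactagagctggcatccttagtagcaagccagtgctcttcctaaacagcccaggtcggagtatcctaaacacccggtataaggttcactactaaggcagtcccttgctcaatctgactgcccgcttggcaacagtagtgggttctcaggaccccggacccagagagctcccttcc

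To ask whether the open chromatin around these genes depended on Tbx1, distal peaks were first summed over the 8 loci. The Tbx1-Cre Ctrl libraries had 33, 26 and 22 distal peaks there, the cKO libraries 18, 12 and 13, and the groups did not overlap. The means were 27.0 ± 5.57 in Ctrl and 14.3 ± 3.21 in cKO (SD, n = 3 each), a cKO mean 46.9% lower. Over whole lists the mean number of distal peaks was 64.4% lower in cKO, so the 8 loci stood for a larger part of the shorter lists. Per 10000 distal peaks of the same library, the 8 loci held 10.3, 9.4 and 7.08 in Ctrl and 12.1, 11.7 and 17.8 in cKO. On this scale cKO was the higher group, with a mean of 13.9 ± 3.38 against 8.91 ± 1.64. The direction of the summed comparison thus turned with the scale, and both are given for each gene.

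**Figure D1:**
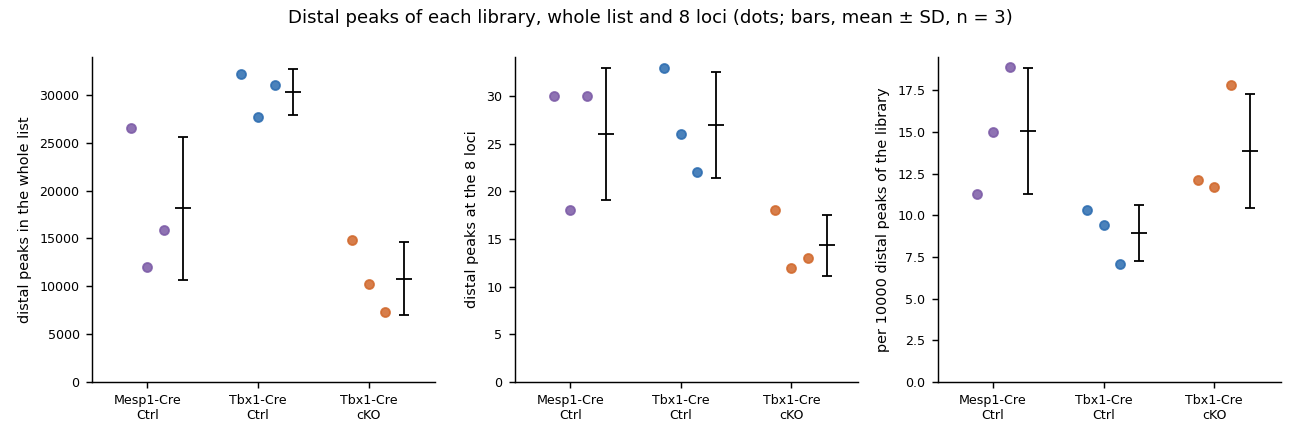
Distal ATAC-seq peaks per library, as the number in the whole list (left), the number at the 8 loci (middle) and the number at the 8 loci per 10000 distal peaks of the library (right), with one dot per library and bars for mean ± SD (n = 3). The cKO libraries had 18, 12 and 13 distal peaks at the 8 loci, all below the Ctrl libraries, but lay above them once scaled.

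At 3 of the 8 genes, Hand2, Myocd and Smarcd3, every cKO library had fewer distal peaks than every Tbx1-Cre Ctrl library (37.5%). The same held for 26.0% of the 17949 protein-coding genes with a distal peak in a Tbx1-Cre library. All 8 genes had a lower mean in cKO, where whole lists held 64.4% fewer distal peaks, and the share of all genes with a lower mean was not counted. The median difference was -1.83 peaks over the set and -1.0 over all genes tested. These differences are in peaks, and the summed relative loss at the 8 loci (46.9%) was smaller than that of whole lists. With 3 libraries against 3, an exact two-sided permutation test cannot go below p = 0.1, and after Benjamini-Hochberg adjustment over all genes the smallest adjusted p of this exact test was 0.383, so no gene passed. Without cKO library 1 the groups also separated at Isl1 and Hand1, which made 5 of 8 genes where 41.1% of all genes separated, and without cKO library 2 they also separated at Srf, where 29.6% of all genes did. When each list was limited to an equal number of its widest peaks, Myocd alone separated (12.5%, with 2.27% of all genes). With the widest 75% of each list, Smarcd3 no longer separated (a difference of 0 peaks) but Isl1 (-1.67) and Mef2c (-3.67) did, which made 4 genes, with 23.2% of all genes.

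Isl1 had 2 distal peaks in each Tbx1-Cre Ctrl library, 2, 1 and 1 in the cKO libraries, and 2, 2 and 3 in the Mesp1-Cre libraries. The groups overlapped (exact permutation p = 0.4). Both recurrent elements lay past the 3′ end of the gene, in intergenic DNA. The one shown above, 15.7 kb from the 5′ end (chr13:117083773-117084656), had a peak in all 9 libraries. Its peaks covered 742, 804 and 668 bp in Ctrl but 200, 201 and 547 bp in cKO. The cKO peaks were the narrower ones in all 3 libraries, and the share of all regions with this pattern was not counted. The narrowest peak that the Tbx1-Cre lists hold is 200 bp. The second element, 12.1 kb from the 5′ end (chr13:117087466-117088155), had peaks of 463, 626 and 377 bp in Ctrl, of 588, 494 and 581 bp in the Mesp1-Cre libraries, and only one of 200 bp in cKO library 1. That cKO peak did not overlap the interval shared by the 3 Ctrl peaks, so this element counted as open in cKO when regions were merged and as absent when the Ctrl lists were intersected.

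Hand2, which is needed for growth of the right ventricle and the pharyngeal arches, had the most regular pattern. Each Tbx1-Cre Ctrl library had 6 distal peaks, the cKO libraries had 4, 4 and 3, and the Mesp1-Cre libraries had 6, 5 and 6. The cKO mean of 3.67 ± 0.577 lay 2.33 peaks below that of Ctrl (exact permutation p = 0.1). Of 8 distal elements at the locus, 5 were called in all 3 Ctrl libraries, and all 5 of those in all 3 Mesp1-Cre libraries. Those 8.36 kb upstream of the gene and 13.4 and 32.8 kb from its 5′ end on the downstream side had a peak in all 9 libraries. At 8.36 kb this rested on merging neighbouring peaks. When the Ctrl lists were intersected, the shared interval there (chr8:59791148-59791325) met a peak in only 2 cKO libraries and 1 Mesp1-Cre library. The sixth peak of the Ctrl libraries differed between them. It was a second peak in the element at 8.36 kb in library 1, lay 4.64 kb from the 5′ end in library 2 and 6.42 kb upstream in library 3. The element 7.72 kb from the 5′ end had a peak in cKO library 1 only among the cKO libraries. The element 20.2 kb from the 5′ end (chr8:59819525-59820400, intergenic) had peaks of 383, 619 and 628 bp in Ctrl and of 658, 511 and 460 bp in the Mesp1-Cre libraries. No cKO library had a peak there, and the nearest cKO peak was 6396 bp away.

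Myocd had no distal peak in any cKO library. The Tbx1-Cre Ctrl libraries had 1, 1 and 2 and the Mesp1-Cre libraries 3, 1 and 1. All Ctrl values were thus above those of cKO (exact permutation p = 0.1), by at most 2 peaks. The recurrent element lay in an intron of the gene, 43.0 kb from its 5′ end (chr11:65040010-65040891). Its peaks were 826, 794 and 602 bp wide in Ctrl and 438 and 425 bp in Mesp1-Cre libraries 1 and 2, with none in Mesp1-Cre library 3. The nearest cKO peak was 42369 bp away, at the promoter of the gene, which was open in all 9 libraries.

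Smarcd3 had 4, 4 and 3 distal peaks in Ctrl, 2, 2 and 1 in cKO and 3, 2 and 2 in the Mesp1-Cre libraries. The cKO mean was 2.0 peaks lower than that of Ctrl without overlap (exact permutation p = 0.1). The element 2.93 kb upstream of the gene (chr5:24110408-24111113) was open in all 9 libraries, at 591, 598 and 630 bp in Ctrl and 681, 304 and 535 bp in cKO. A second one, 22.6 kb upstream, had a peak in all libraries but cKO library 3. The rest of the Ctrl peaks came from an element 1.33 kb upstream, called in Ctrl libraries 1 and 2, from elements called in a single Ctrl library, 36.1 kb upstream and 48.0 kb downstream of the 5′ end, and from a second peak in the element at 22.6 kb in Ctrl library 2. With the promoter set at 2.5 kb from a TSS, with a window of 10 kb, or with either limit on narrow peaks, the groups overlapped.

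Mef2c, the longest gene of the set at 164 kb, had the same mean number of distal peaks as Hand2 in both Tbx1-Cre groups, at 6.0 in Ctrl and 3.67 in cKO, but with a wider spread. The counts were 5, 8 and 5 in Tbx1-Cre Ctrl, 5, 1 and 5 in cKO and 8, 4 and 9 in the Mesp1-Cre libraries. The groups overlapped, and the low value belonged to cKO library 2 (exact permutation p = 0.6). The element in an intron 14.3 kb from the 5′ end (chr13:83656853-83657864), had the largest mean Ctrl width (898 ± 82.6 bp) of the distal elements called in all Ctrl libraries. It covered 803, 949 and 943 bp in Ctrl and 840, 990 and 859 bp in cKO, values that overlapped. Elements 63.4 and 68.5 kb into the gene were called in all Ctrl libraries and in cKO libraries 1 and 3, at 200 to 303 bp in cKO and 297 to 549 bp in Ctrl.

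Srf had 7, 3 and 3 distal peaks in Ctrl, 2, 3 and 2 in cKO and 3, 2 and 4 in the Mesp1-Cre libraries (exact permutation p = 0.3 for cKO against Ctrl). The high value was that of Ctrl library 1, which alone called 3 of the 7 distal elements of the locus. The element 3.0 kb into the gene, in an intron (chr17:46689738-46690490), was open in all 9 libraries. The other elements shared by all Ctrl libraries lay in a coding exon of Cul9 and an intron of Ptk7, neighbouring genes, and which gene they act on is not known from these data.

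Nkx2-5 and Hand1 had few distal peaks. At Nkx2-5 the Ctrl libraries had 3, 0 and 0, the cKO libraries 0, 1 and 1, and the Mesp1-Cre libraries 1 each. No distal element at this locus was called in all 3 libraries of any group. Between 8.4 and 9.36 kb upstream of the gene, however, 5 of the 9 libraries had a peak in one of 3 neighbouring intervals (Mesp1-Cre libraries 1 and 2, Ctrl library 1, and cKO libraries 2 and 3). At Hand1 the counts were 5, 2 and 1 in Ctrl, 3, 0 and 0 in cKO and 4, 1 and 4 in the Mesp1-Cre libraries (exact permutation p = 0.5 for cKO against Ctrl). Its one element shared by all Ctrl libraries lay 45.6 kb downstream of the 5′ end, over a UTR exon of the neighbouring gene Galnt10, and was 878, 630 and 738 bp wide in Ctrl and 452 bp in cKO library 1. The other 2 cKO libraries had no peak there.

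**Figure D2:**
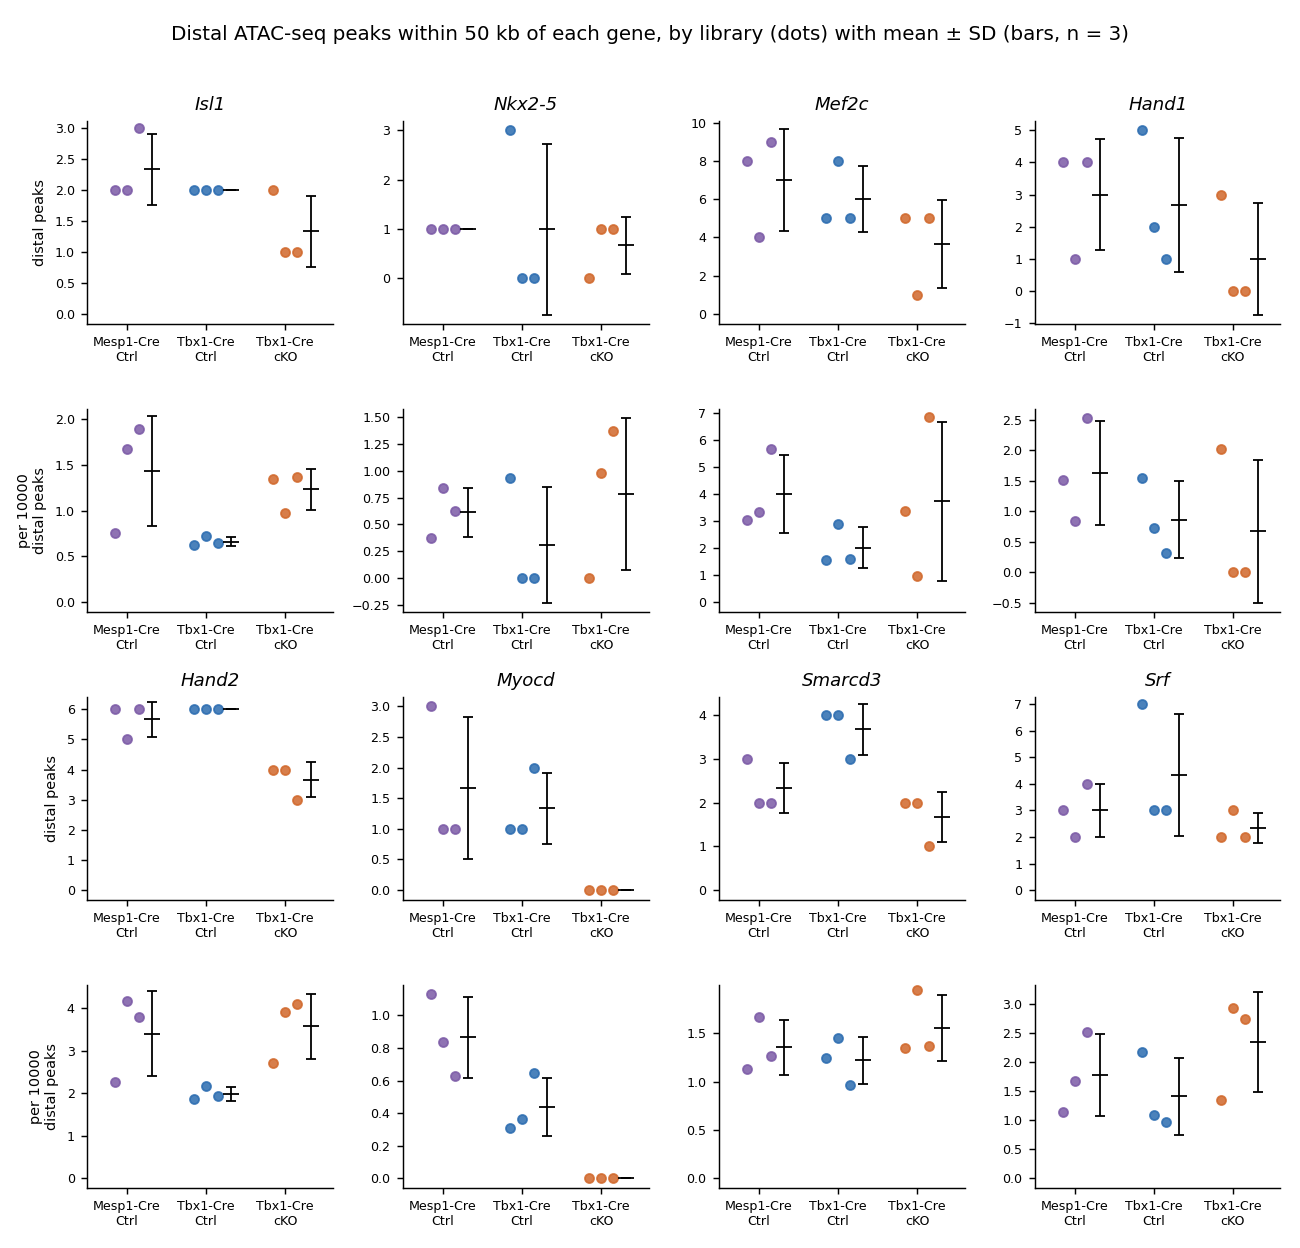
Distal peaks within 50 kb of each gene, by library (one dot each, in the order of the replicate numbers within a group), with bars for mean ± SD (n = 3), as the number of peaks (the row under each gene's name) and per 10000 distal peaks of the library (the row below that). Hand2, Myocd and Smarcd3 had fewer peaks in every cKO library than in every Ctrl library, while Isl1 and Hand2 lay above Ctrl in cKO once scaled.

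Scaled to 10000 distal peaks of the library, 6 of the 8 genes had a higher mean in cKO and 2, Hand1 and Myocd, a lower one. The share of all genes with a higher scaled mean was not counted. Myocd was the one gene whose 3 cKO values all lay below its Ctrl values (12.5% of the set, with 7.77% of all genes). Its scaled counts were 0.311, 0.361 and 0.644 in Ctrl and 0 in each cKO library. Because 0 stays 0 on any scale, the scaled call at Myocd follows from the unscaled one and adds nothing to it. When peaks at promoters of neighbouring genes were counted as distal too, the groups overlapped at Myocd (a difference of -0.323 in place of -0.439), and none of the 8 genes lay below Ctrl. The scaling there still used the number of peaks away from all TSSs, and without scaling the groups stayed apart at Myocd (-2.0 peaks). Isl1 and Hand2 were above Ctrl in every cKO library (25.0% of the set, with 15.1% of all genes). For Isl1 the values were 0.621, 0.723 and 0.644 in Ctrl and 1.35, 0.977 and 1.37 in cKO. For Hand2 they were 1.86, 2.17 and 1.93 in Ctrl and 2.7, 3.91 and 4.1 in cKO. Each of these 3 comparisons had the smallest exact permutation p of 0.1, and the smallest adjusted p over all genes was 0.437. The median difference was 0.519 over the set and -0.0219 over all genes. Without cKO library 1, Isl1, Nkx2-5, Hand2 and Srf lay above Ctrl (4 of 8, with 21.5% of all genes) and Hand1 and Myocd below (2 of 8, with 17.0%). Leaving out another library added 1 gene above Ctrl in 3 cases, namely Mef2c without cKO library 2 (3 of 8, with 20.2% of all genes), Srf without Ctrl library 1 (20.6%) and Smarcd3 without Ctrl library 2 (19.0%). Where each list was limited to an equal number of its widest peaks, none lay above (0 of 8, with 19.1% of all genes) and the Isl1 difference turned to -1.09, and with the widest 75% of each list it was -0.201.

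**Figure D3:**
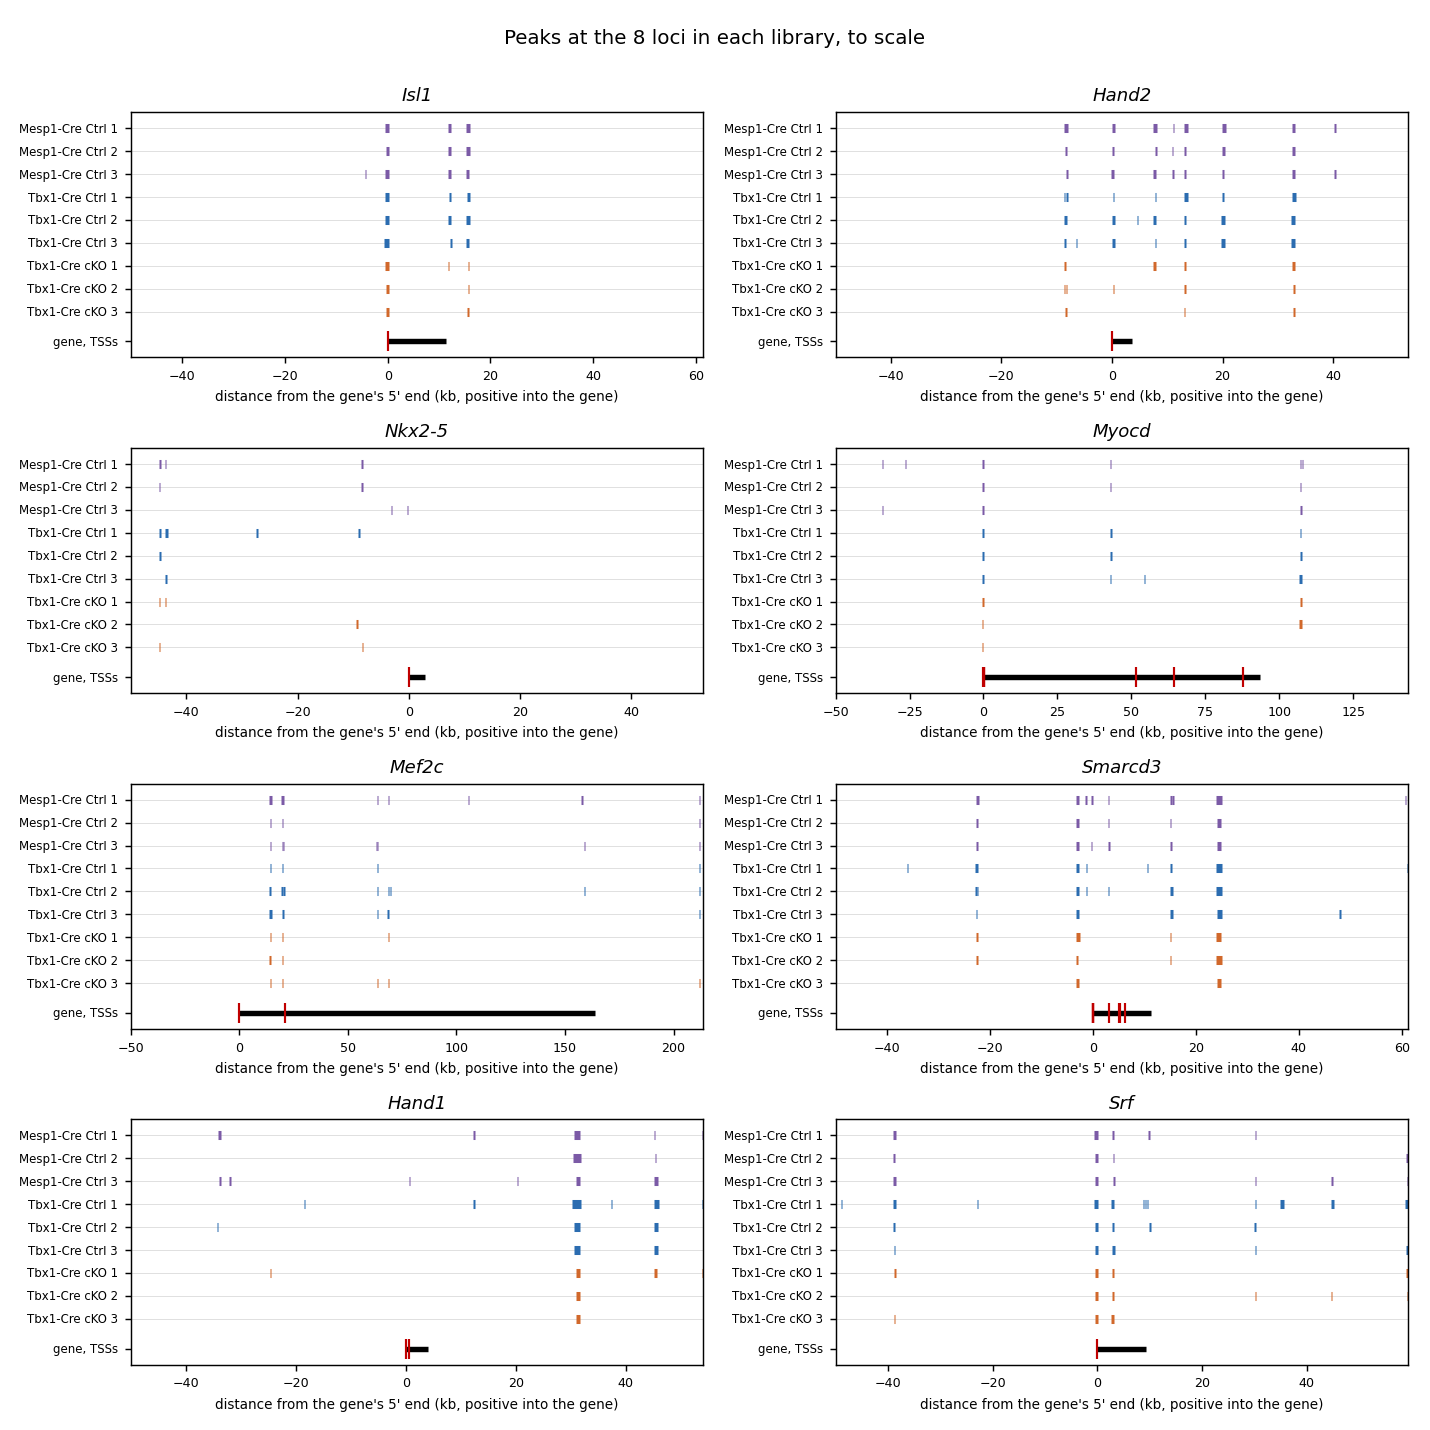
Peaks at the 8 loci in the 9 libraries, drawn to scale against the distance from the 5′ end of each gene in kb, with the gene body as a black bar and its TSSs as red ticks. At Hand2 a column of peaks at 20.2 kb, and at Myocd one at 43.0 kb, was present in the Ctrl libraries and missing from the 3 cKO rows.

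The peaks of all libraries at the 8 loci merged into 73 regions: 50 distal, 9 at promoters of the set and 14 at promoters of neighbouring genes. Of the 50 distal regions, 21 were called in a single library (6 in Mesp1-Cre, 13 in Tbx1-Cre Ctrl and 2 in cKO). Of the 55120 distal regions in the genome, 5892, 13913 and 1041 were called in a single library of these groups. Another 18 of the 50 regions were called in all 3 Tbx1-Cre Ctrl libraries. Of these, 7 were called in all 3 cKO libraries (38.9%, with 27.4% of the 15793 such regions in the genome), 9 in 1 or 2, and 2 in none (11.1%, with 27.8% in the genome). The 2 were the elements at Hand2 and Myocd. Single cKO libraries held 14, 9 and 11 of the 18 regions, or 77.8, 50 and 61.1%, against 62.7, 47.2 and 37.4% of the 15793. Without cKO library 1, 5 of the 18 had no cKO peak, with 44.5% in the genome. Median Ctrl width was 606 bp for regions called in all cKO libraries, 437 bp for those called in 1 or 2, and 493 bp over all 18, with 540 bp over the 15793. The 2 regions called in no cKO library had mean Ctrl widths of 543 bp at Hand2 and 741 bp at Myocd, both above the median of the 18. Over the 7 regions kept in all cKO libraries, the median covered width was 598 to 654 bp in Ctrl libraries and 304 to 535 bp in cKO libraries. The widths of such regions over the genome were not compared. Median peak width over whole lists was also lower in cKO, at 444 to 455 bp against 464 to 514 bp in Ctrl. Only 2 of the 50 distal regions, at Nkx2-5 and Hand1, were called in cKO alone, each in 1 library (4.0%, with 1.94% of the 55120 distal regions in the genome).

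**Figure D4:**
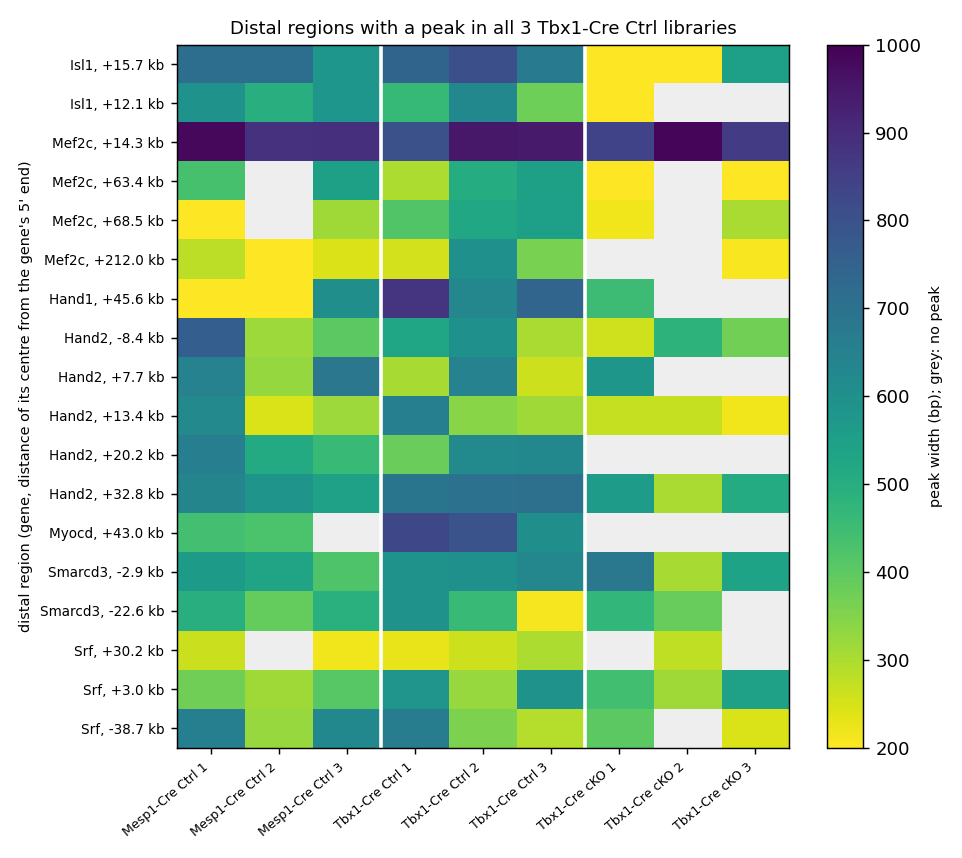
Covered width in bp (colour; grey, no peak) of the 18 distal regions that had a peak in all 3 Tbx1-Cre Ctrl libraries, by library in columns, with the gene and the distance from its 5′ end on the left. The rows at Hand2 (20.2 kb) and Myocd (43.0 kb) were grey in all 3 cKO columns, and the Mef2c element at 14.3 kb was wide in all 9 libraries.

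The promoters of the set were of 3 kinds. Isl1, Mef2c, Myocd and Srf had a promoter peak in all 6 Tbx1-Cre libraries, as did 49.6% of the 22367 protein-coding genes. Nkx2-5 and Hand1 had a promoter peak in Mesp1-Cre library 3 alone, at 200 and 211 bp. Hand2 and Smarcd3 lay between. The Hand2 promoter peak was called in all 3 Ctrl libraries, in all 3 Mesp1-Cre libraries and in cKO library 2. Smarcd3 had one in all 3 Mesp1-Cre libraries but in only 1 Ctrl library and no cKO library, and the peak at the 5′ TSS of the coding transcript was called in Mesp1-Cre libraries 1 and 3 only. At Mef2c the peaks stood at the second TSS (position 83663976), and the first (position 83643033) had none in any library.

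Among the 4 genes with a promoter peak in all 6 Tbx1-Cre libraries, the widest such peak was narrower in every cKO library than in every Ctrl library at 3, namely Mef2c, Myocd and Srf (75%). The same held for 39.0% of the 11084 genes that could be compared, with a smallest adjusted p of 0.255. At Myocd the widths were 799, 696 and 757 bp in Ctrl and 626, 538 and 346 bp in cKO (exact permutation p = 0.1). Srf had a narrow spread in Ctrl, at 737, 753 and 760 bp, with 600, 590 and 688 bp in cKO (exact permutation p = 0.1). At Mef2c the Ctrl widths ran from 430 to 1366 bp and the cKO widths from 274 to 424 bp, and the groups overlapped when the widths of all its promoter peaks were summed. Isl1 overlapped, with 684, 755 and 888 bp in Ctrl and 718, 629 and 602 bp in cKO (exact permutation p = 0.2).

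**Figure D5:**
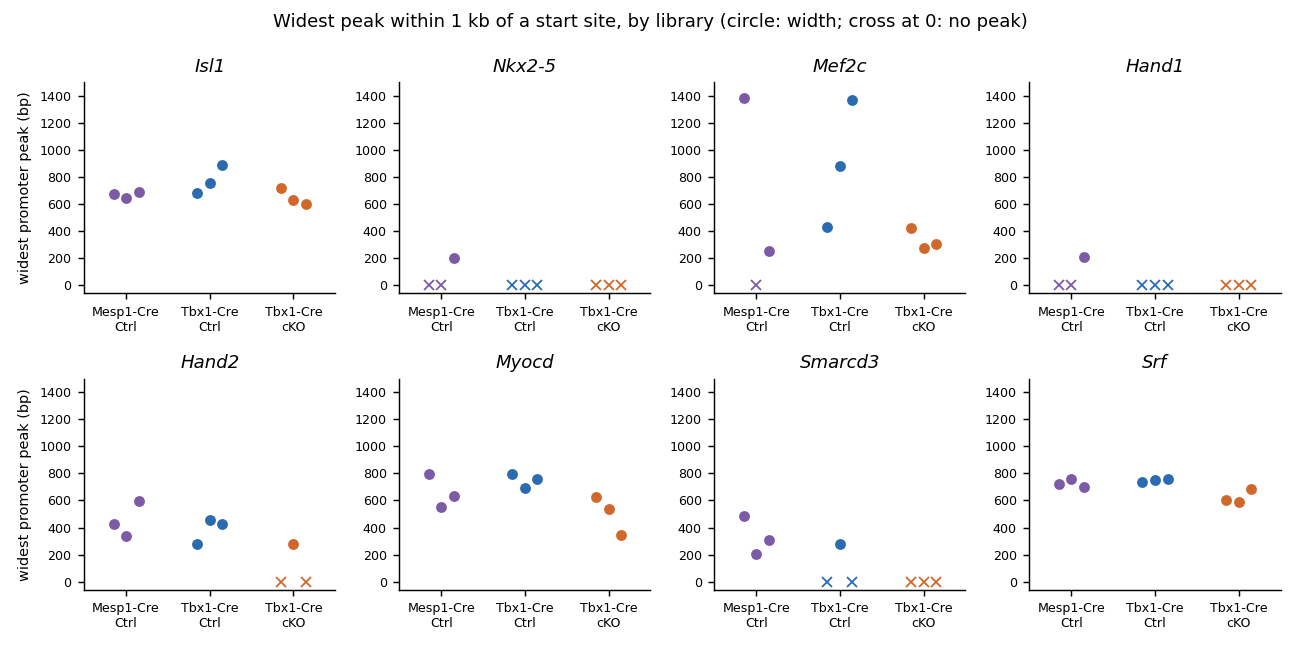
Width in bp of the widest peak with its midpoint within 1 kb of a TSS of each gene, by library (circles; a cross at 0 marks no peak). Isl1, Myocd and Srf had a peak in all 9 libraries, Mef2c in 8, and Nkx2-5 and Hand1 in 1.

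To see whether these loci were open in the mesoderm lineage, the Mesp1-Cre Ctrl lists were set against the same Tbx1-Cre Ctrl lists that the cKO comparison used. The Mesp1-Cre libraries had 30, 18 and 30 distal peaks at the 8 loci, with a mean 3.7% below that of Tbx1-Cre Ctrl, while their whole lists held 40.2% fewer distal peaks. No gene had fewer distal peaks in every Mesp1-Cre library than in every Tbx1-Cre Ctrl library (0 of 8, with 11.1% of 18378 genes). Smarcd3 did without Mesp1-Cre library 1 (1 of 8, with 27.6% of all genes) and without Ctrl library 3 (1 of 8, with 14.6%). Per 10000 distal peaks, Isl1, Mef2c and Hand2 lay above Tbx1-Cre Ctrl in every Mesp1-Cre library (37.5%, with 12.4% of genes; exact permutation p = 0.1 each), and 6 genes did without Ctrl library 1 (75%, with 20.5% of genes). Myocd joined them without Mesp1-Cre library 3 (4 of 8, with 17.4% of genes) or without Ctrl library 3 (15.8%). All 8 genes had the higher mean in the Mesp1-Cre group on this scale, and the share of all genes that did so was not counted. The median difference from Tbx1-Cre Ctrl was 0.591 over the set and 0.0198 over all genes tested. For Mef2c the scaled counts were 3.02, 3.34 and 5.66 in Mesp1-Cre and 1.55, 2.89 and 1.61 in Tbx1-Cre Ctrl.

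Of the 18 distal regions called in all 3 Tbx1-Cre Ctrl libraries, 14 were called in all 3 Mesp1-Cre libraries (77.8%, with 38.1% of the 15793 regions in the genome). None lacked a peak in every Mesp1-Cre library, whereas 24.3% of regions in the genome did. Single Mesp1-Cre libraries held 18, 15 and 17 of the 18. The remaining 4 regions, 2 at Mef2c and 1 each at Myocd and Srf, were called in 2 Mesp1-Cre libraries. Of the 50 distal regions at the 8 loci, 9 were called in Mesp1-Cre libraries alone, 6 of them in a single library (18.0%, with 14.3% of distal regions in the genome). More, 13, were called in Tbx1-Cre Ctrl libraries alone, each in a single library and 8 of them in Ctrl library 1 (26.0%, with 38.2% in the genome). The promoter region of the non-coding gene 5033428I22Rik, 11 kb from the 5′ end of Hand2, was called in all 3 Mesp1-Cre libraries and in none of the 6 Tbx1-Cre libraries.

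Motif matches were counted on both strands in 300 bp around the centre of each distal region called in all 3 Tbx1-Cre Ctrl libraries. The T-box motif AGGTGTGA, which contains the core GGTGTGA, was found in 1 of the 18 regions of the set (5.56%) and in 0.893% of the 15793 regions. The core was found in the same 1 region and in 4.07% of regions. That region was the Hand2 element 20.2 kb from the 5′ end, and the match, in capitals and 6 bp past the sequence shown above, lay on the plus strand of mm9.
Hand2, chr8:59820023-59820052: gcgggagcacaAGGTGTGActttggagctt
The motif was held by 0.797% of the genomic regions with no cKO peak and by 0.81% of those with a peak in all 3 cKO libraries. AGATAA was found in 4 of the 18 regions (22.2%, with 11.4% in the genome), 1 each at Isl1, Mef2c, Hand2 and Myocd. AAGTG was found in 9 (50%, with 48.4%), the E-box CANNTG in 13 (72.2%, with 80.4%) and TAATTA in 1, at Mef2c (5.56%, with 5.63%). Neither the MEF2 box nor the CArG box was matched in any of the 18 windows (0 of 18, with 2.13% and 1.48% of regions). A match is a sequence description and does not show binding.

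For comparison, 20 other genes of the cardiac programme were counted in the same way, among them GATA factors, further MEF2 and BAF subunit genes, myocardin-related coactivators and FGF ligands. Fewer distal peaks in every cKO library than in every Tbx1-Cre Ctrl library were found at 4 of the 20 (20%), below the 26.0% of all genes. These were Gata6, a zinc finger factor of the heart fields (4, 2 and 2 peaks in Ctrl against 1, 1 and 0 in cKO), Mkl2, a coactivator of SRF (9, 8 and 8 against 5, 3 and 4), Nkx2-6, an NK2 homeodomain gene (8, 5 and 7 against 3, 4 and 3), and Smarca4, the BAF ATPase (2, 1 and 1 against 0 in each). Scaled, Smarca4 alone lay below Ctrl (5.0%, with 7.77% of all genes), where its 0 peaks in each cKO library stay 0 on any scale. Mef2b, Mef2d, Mkl2, Foxh1 and Ldb1 lay above Ctrl (25.0%, with 15.1%). Ldb1 had 1 distal peak in every Tbx1-Cre library, so its scaled difference came from list length alone. The median difference in distal peaks was -1.67 for the 20 genes, beside -1.83 for the set of 8. Nkx2-6, like Hand2, had a lower count in every cKO library without scaling, but its scaled counts overlapped with those of Ctrl.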

How the data were processed

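As the study's methods describe, the authors aligned reads to mm9 with Bowtie2 (version 2.3.4.3 in the submitters' processing notes), kept unique concordant pairs, removed duplicates and mitochondrial reads, and ran MACS2 (2.1.2) on every library by itself. The authors deposited the start and end of each peak, and these positions are the values used. The narrowest peak was 199 bp in the Mesp1-Cre lists and 200 bp in the others, so starts may differ by 1 bp. The study's main text gives fewer ATAC-seq replicates than its sample summary, and all 3 libraries per group were used. The list of Mesp1-Cre library 1 held 42650 peaks, a number absent from that summary, whose remaining Mesp1-Cre count is lower. The lists of all other libraries matched counts given there. Mesp1-Cre library 1 enters every Mesp1-Cre mean and range, and the reason for the mismatch is unknown. The study calls its ATAC-seq replicates biological, and its sample summary lists a number of embryos for each library. The labels do not say how independently the pools were collected. The p-values thus measure the spread between these libraries, which may be in part technical.

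Genes and TSSs came from the GENCODE vM1 annotation of NCBIM37 (mm9). For each gene, distal peaks from 50 kb before to 50 kb after the gene body were counted, as numbers and per 10000 distal peaks of the library. Groups were compared by whether all libraries of one lay below all of the other and by an exact permutation test on the means (two-sided), adjusted over all protein-coding genes with a distal peak (Benjamini-Hochberg). Regions were peaks of the 9 libraries merged by 1 bp of overlap. All 8 genes are named. The elements shown were, for each gene, the distal region with the widest Ctrl peaks among those in all 3 Ctrl and no cKO library, and where there was none, the widest among those in all 9 libraries. The genes, lists and tests were chosen with earlier results of these data known, and the scaled sums, the scaled Mesp1-Cre counts, the Mesp1-Cre regions and the T-box stretch were added after the values were seen. Calculations used Python 3.11.15, numpy 2.4.6 and pandas 2.3.3, and were tested on simulated data.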

Additional observations from a re-analysis of the deposited data

How the results depend on the processing

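The main limit is the unequal length of the lists, since no read depth or peak height was used. With every list cut to the same number of widest peaks, 1 gene (Myocd) had fewer distal peaks in every cKO than in every Ctrl library in place of 3, and 0 in place of 2 lay above Ctrl when scaled. The summed difference was then -0.667 in place of -12.7 peaks, and 1.3 in place of 4.97 when scaled, while of 6 regions in all Ctrl libraries, 1 was in no cKO library (16.7%, with 11% in the genome), 3 in all cKO libraries (50%, with 54.9%) and 4 in all Mesp1-Cre libraries (66.7%, with 49.4%), so the first 2 shares stood on the other side of the genome's than in the main setting. The Smarcd3 difference turned to 0.333 peaks and the scaled Isl1 difference to -1.09, and to -0.201 with the widest 75% of peaks. With that 75%, the region counts were 4, 4 and 8 of 13 (30.8, 30.8 and 61.5%, with 31.9, 24.4 and 34.6% in the genome; 2, 7 and 14 of 18 in the main setting, or 11.1, 38.9 and 77.8%, with 27.8, 27.4 and 38.1%). A window of 10 kb gave a summed difference of -5.67 and 11 regions in all Ctrl libraries. Of these, 1 was in no cKO library (9.09%, with 27.8% in the genome) and 8 in all Mesp1-Cre libraries (72.7%, with 38.1%). At 10 kb, 1 gene (Hand2) had Mesp1-Cre below Ctrl in place of 0, with 9.31% of all genes. A window of 100 kb gave -26.3 and 28 regions in all Ctrl libraries, 4 of them in no cKO library (14.3%, with 27.8% in the genome). With distal taken relative to the gene's own TSSs but the scaling unchanged, 0 genes lay below Ctrl in cKO when scaled (main 1, Myocd), and 5 lay above it in Mesp1-Cre (main 3). With 50% reciprocal overlap, 14 regions were shared by all Ctrl libraries. Of these, 3 were in no cKO library (21.4%), 4 in all cKO libraries (28.6%) and 6 in all Mesp1-Cre libraries (42.9%). Genome shares under this rule were not counted, and those of the main setting were 27.8, 27.4 and 38.1%. The cause was not tested, apart from the smaller or larger windows themselves.

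Leaving out 1 library at a time gave 3 to 5 genes below Ctrl in cKO (5 without cKO library 1), with 27.3 to 41.1% of all genes. Scaled, 1 to 2 lay below (with 9.83 to 17.0% of all genes) and 2 to 4 above (16.3 to 21.6%). In Mesp1-Cre, 0 to 1 lay below Ctrl (11.8 to 27.6%). Scaled, 3 to 6 lay above it (14.6 to 20.5%), with 6 without Ctrl library 1. Regions with no cKO peak numbered 2 to 5, with 30.4 to 44.5% in the genome. Those in all 6 Tbx1-Cre libraries numbered 7 to 10 (21.5 to 40.2%), and those in all Ctrl and Mesp1-Cre libraries 14 to 17 (30.9 to 49.9%). Summed differences were -15.2 to -9.67 (3.02 to 6.04 when scaled). Promoter peaks were narrower at 3 to 4 genes, with 42.6 to 53.7% of the genes that could be compared. The labels number the libraries 1 to 3 in each group. The deviations of same-numbered Ctrl and cKO libraries had correlations of 0.166, -0.00587 and 0.0999. With 3 libraries per group, these values cannot decide whether same-numbered libraries were handled together. With the replicate block, where cKO had to lie below Ctrl in every same-numbered pair, 4 genes did so (main 3), with 38.4% of all genes. Scaled, 1 lay below (with 12.0% of all genes) and 3 above (20.3%). In Mesp1-Cre, 1 lay below Ctrl (23.2%, main 0) and 3 above when scaled (17.0%). Promoter peaks were narrower at 3 of 4 genes, with 56.4% of the genes that could be compared. Ctrl libraries 1 and 3 correlated best with the cKO library of their own number, but Ctrl library 2 did so with cKO library 3 (0.115). The remaining settings kept the counts within 1.5 times of the main ones.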
